A study of Rattus norvegicus with 3 samples.

Results

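The genes described here encode 10 extracellular matrix proteins other than collagens that fibroblasts of scar tissue are known to secrete: the proteoglycans Dcn, Lum, Bgn and Ogn and the glycoproteins Fn1, Sparc, Postn, Lox, Fbln2 and Fstl1. They were taken by gene symbol from the deposited tables, which list 30957 genes, and 11 rows carried one of these symbols because Ogn stands on 2. Of the 10 genes, 9 had values above 0 and Ogn was listed at 0 in every rat. The series holds mRNA-seq libraries of motor cortex, 1 from each of 3 Sprague-Dawley rats, all male, whose treatment is given as cerebral ischemia and reperfusion, that is, an interrupted and then restored blood supply to the brain. The rats, numbered 19, 35 and 70, form 1 group labelled 8 weeks, which may be an age or an interval since the operation. No control group was analysed here, so the values compare injured animals with each other and give no effect of the injury.

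When brain tissue dies after a loss of blood supply, fibroblasts of vessel walls and meninges can deposit a fibrous matrix beside the glial scar. In such a matrix, small leucine-rich proteoglycans bind to collagen fibrils and set their spacing, and lysyl oxidase joins the fibrils by covalent cross-links. Fibronectin and the matricellular protein periostin tie the matrix to integrins on cells, and the matricellular protein SPARC binds collagen. Several of these genes are not particular to fibroblasts: SPARC, for example, is also known from brain endothelium and microglia.

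Levels are in FPKM, that is, fragments scaled to gene length in kilobases and to the size of the library, which allows levels of different genes to be compared per length. The effective depth was 15561621, 16460583 and 16049598 fragments in rats 19, 35 and 70, and values of 3 rats are given in this order throughout. Rat 35 stood apart from the others before any of these genes was considered: the 8 neuron markers summed to 1246, 56.4 and 1813 FPKM. Of the 14134 genes with a mean of 1 FPKM or more, 45.4% had their highest value in rat 35. That share depends on the scaling. With mitochondrial genes left out and the rest rescaled, it was 35.1% for rat 35 and 35.8% for rat 70. In pieces of bulk tissue, fewer cells of a type and less RNA per cell cannot be told apart.

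The level of the matrix genes differed widely between the rats, and rat 35 had the highest value in all 9 genes above 0. All 9 being highest in rat 35 stands against 45.4% of all genes tested (35.1% with mitochondrial genes left out and the rest rescaled), and none had it in rat 19 (24.8% of all genes) or rat 70 (29.8%). The highest rat was over 2-fold above the lowest for 8 of the 9, against 49.9% of all genes, and rat 35 was over 2-fold above each of the others for 7 of the 9, against 12.7% of all genes. With all 9 highest in rat 35, none could be over 2-fold above each other rat in rat 19 (2.10% of all genes) or in rat 70 (4.90%). Sparc and Fbln2 were the 2 genes that did not reach this fold in rat 35. Since the genes were chosen with earlier results of these data known, the counts are descriptions and carry no test.

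Before the single genes, 4 start regions are shown, because Lum had the widest range between the rats, Postn the middle one, and Sparc and Fbln2 the narrowest. They are the 250 bases before the RefSeq start, on build GRCr8, 5′ to 3′ on the strand of the gene, with motif matches in capitals (the TATA box, TATAAA, and the SMAD element, CAGAC, which on the other strand reads GTCTG).
Lum (chr7:34245456-34245705, plus strand): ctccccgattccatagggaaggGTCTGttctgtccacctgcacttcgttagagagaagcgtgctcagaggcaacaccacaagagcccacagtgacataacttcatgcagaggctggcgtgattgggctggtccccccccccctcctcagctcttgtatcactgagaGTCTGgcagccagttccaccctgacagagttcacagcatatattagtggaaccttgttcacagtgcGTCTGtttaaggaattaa
Postn (chr2:140677811-140678060, plus strand): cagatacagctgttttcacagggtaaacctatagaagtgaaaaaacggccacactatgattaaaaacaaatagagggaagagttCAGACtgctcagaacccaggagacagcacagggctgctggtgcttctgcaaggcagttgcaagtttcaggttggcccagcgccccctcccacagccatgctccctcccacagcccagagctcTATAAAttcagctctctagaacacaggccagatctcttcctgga
Sparc (chr10:40038817-40039066, minus strand): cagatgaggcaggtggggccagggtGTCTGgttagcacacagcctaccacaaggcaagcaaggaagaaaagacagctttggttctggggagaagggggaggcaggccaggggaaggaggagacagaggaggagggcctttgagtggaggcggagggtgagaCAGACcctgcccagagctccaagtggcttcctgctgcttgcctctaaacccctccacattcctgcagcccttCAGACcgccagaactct
Fbln2 (chr4:125261409-125261658, plus strand): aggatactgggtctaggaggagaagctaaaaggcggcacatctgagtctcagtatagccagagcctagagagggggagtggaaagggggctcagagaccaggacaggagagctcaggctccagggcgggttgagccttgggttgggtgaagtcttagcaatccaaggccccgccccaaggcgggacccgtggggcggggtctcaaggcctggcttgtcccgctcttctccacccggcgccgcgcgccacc
Of the 10 genes, 6 had a start region in the RefSeq table: Lum, Postn, Sparc, Fbln2, Fstl1 and Ogn. Windows of 300 bases, from 250 before to 50 after the start, were searched on both strands for the TATA box, for the AP-1 site, which is TGANTCA, for the SMAD element and for the CArG box, and no 2 motif kinds overlapped in the regions printed. The SMAD element was found 3 times each for Lum and Sparc, once each for Postn, Ogn and Fbln2, and not for Fstl1; the match of Fbln2 lay after its start, in bases not printed. Such a match is common, since 50.1% of the 33469 windows held one. The TATA box was found for Postn, 44 bases before the start, and in 2 overlapping matches on opposite strands for Ogn, against 14.2% of all windows. No match to the AP-1 site (7.33% of all windows) or to the CArG box (1.64%) was found in any of the 6. The GC content was 46.0% for Ogn, 50.7% for Lum and 52.0% for Postn, and it was 61.0% for Sparc, 64.7% for Fbln2 and 68.7% for Fstl1, beside a median of 51.7% over all windows. Lum, with the widest range between rats, and Sparc, with one of the narrowest, held the same number of SMAD elements. Whether any of these motifs bears on the ranges was not tested.

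Among the small leucine-rich proteoglycans, Lum and Dcn had the widest ranges of the 9 genes. Lum encodes lumican, a proteoglycan that binds collagen fibrils and keeps their spacing. It was at 36.4, 494 and 38.2 FPKM (190 ± 264, SD, n = 3). Rats 19 and 70 were alike, and rat 35 was 13.6-fold above rat 19 and 12.9-fold above rat 70. On the log2(FPKM + 1) scale, this range of 3.73 was wider than that of 98.2% of all genes tested. Dcn encodes decorin, which coats collagen fibrils and binds TGF-beta. Its level was 40.9, 278 and 23.5 FPKM (114 ± 142, SD, n = 3). Here rats 19 and 70 were not alike, with rat 70 at 0.57 times rat 19, and rat 35 was 6.78-fold above rat 19 and 11.8-fold above rat 70. Bgn encodes biglycan, a close relative of decorin that also acts on Toll-like receptors when released from the matrix. It was at 128, 906 and 118 FPKM (384 ± 452, SD, n = 3), 7.08-fold higher in rat 35 than in rat 19 and 7.70-fold higher than in rat 70.

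The balance among the 3 proteoglycans was not the same in every rat. The ratio of Lum to Dcn was 0.89, 1.78 and 1.63, so Dcn exceeded Lum in rat 19 and Lum exceeded Dcn in rats 35 and 70. The ratio of Bgn to Dcn was 3.12, 3.26 and 5.01, and Bgn was the most abundant of the 3 in each rat. Dcn and Lum are neighbours on chromosome 7 in the build of the files (Rnor 6.0), both on the plus strand, with Dcn at 38742051 to 38782323 and Lum at 38819771 to 38826862, 37447 bp apart. The next genes of this cluster, Kera (keratocan) and Epyc (epiphycan), also encode small leucine-rich proteoglycans. Kera was listed at 0 in all rats and Epyc at 0, 0.02 and 0 FPKM.

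Ogn, which encodes osteoglycin (mimecan), could not be described. Both of its rows on chromosome 17 (14607442 to 14627937 and 15449301 to 15467279, Rnor 6.0) were listed at 0 in all rats. Its neighbours Omd and Aspn were also listed at 0, and Aspn, like Ogn, stands on 2 rows. Among named genes, 53.4% of the 524 rows whose symbol stands on 2 rows were at 0 in all rats, and 15.9% of the 18373 rows whose symbol stands on 1. Col1a2, a chain of the collagen whose other chain gene, Col1a1, was at 72.8, 754 and 80.6 FPKM, was listed at 0 as well. The zeros of Ogn are therefore not read as a lack of its transcript.

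Of the 9 genes, 5 had their lowest value in rat 19 (Lum, Fn1, Sparc, Lox and Fstl1) and 4 in rat 70 (Dcn, Bgn, Postn and Fbln2). The shares of all genes lowest in these rats were not computed. Fibronectin and the cross-linking enzyme separated these rats most. Fn1 encodes fibronectin, a large glycoprotein that joins collagen to integrins. It was at 21.6, 176 and 46.6 FPKM (81.4 ± 82.8, SD, n = 3). Lox encodes lysyl oxidase, which oxidizes lysines of collagen and elastin for cross-linking. It was at 2.46, 17.8 and 6.95 FPKM (9.06 ± 7.88, SD, n = 3). In both genes rat 70 stood between the others, at 2.16 times rat 19 for Fn1 and 2.83 times rat 19 for Lox. These were the only 2 of the 9 genes whose values in rats 19 and 70 were over 2-fold apart, beside 17.1% of all genes.

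Postn and Fstl1 were also over 2-fold higher in rat 35 than in each other rat. Postn encodes periostin, a fasciclin-domain protein that is induced by TGF-beta and binds integrins. Its level was 4.66, 19.8 and 2.64 FPKM (9.03 ± 9.38, SD, n = 3). As for Dcn, rat 70 was the lowest, at 0.57 times rat 19. Fstl1 encodes a secreted glycoprotein of the SPARC family with a follistatin-like domain. It was at 27.5, 156 and 31.2 FPKM (71.5 ± 73.0, SD, n = 3), 5.67-fold higher in rat 35 than in rat 19 and 4.99-fold higher than in rat 70.

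Sparc and Fbln2 differed least. Sparc encodes a calcium- and collagen-binding matricellular glycoprotein and was by far the most abundant of the 9, at 742, 1565 and 827 FPKM (1045 ± 453, SD, n = 3). It ranked 38, 22 and 29 among all genes of each rat. Its highest value was 2.11-fold above its lowest, a 2-fold call that was lost with mitochondrial genes left out and the rest rescaled (log2 range of 0.88), and its range on the log2(FPKM + 1) scale, 1.08, was wider than that of 61.0% of all genes tested. Fbln2 encodes fibulin 2, a glycoprotein of basement membranes and elastic fibres. It was at 12.8, 17.9 and 11.05 FPKM (13.9 ± 3.53, SD, n = 3). Its highest value was 1.62-fold above its lowest, and its range of 0.65 on the log2(FPKM + 1) scale was wider than that of 37.4% of all genes tested.

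**Figure D1:**
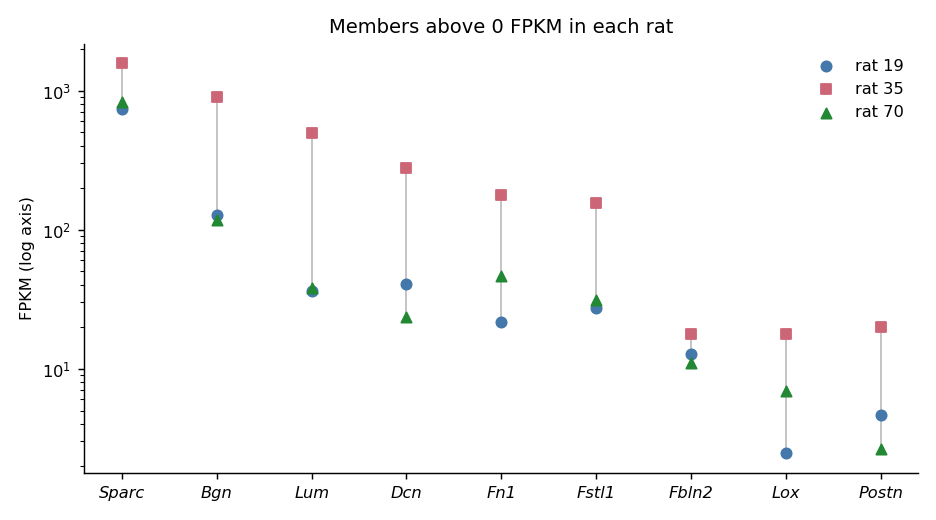
FPKM (log axis) of the 9 genes above 0, ordered by their mean, with 1 symbol for each rat and a line from the lowest to the highest value. Rat 35 is the highest in each gene, from a 1.62-fold range in Fbln2 to a 13.6-fold range in Lum.

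Ordered by level, Sparc and Bgn led in every rat, and the order of the others changed. In rat 19 Dcn came next (40.9 FPKM) and Lox was the lowest (2.46). In rat 35 Lum came next (494), and Postn, Fbln2 and Lox lay close together at 19.8, 17.9 and 17.8. Their 95% Poisson intervals for counting error were 18.8 to 20.9, 16.9 to 18.9 and 17.0 to 18.6. That of Fbln2 overlapped both others, whereas those of Postn and Lox did not overlap. In rat 70 Fn1 came next (46.6) and Postn was the lowest (2.64). By the mean over rats, the order was Sparc, Bgn, Lum, Dcn, Fn1, Fstl1, Fbln2, Lox and Postn. From Bgn to Postn, the means of neighbours in this order differed by less than the larger of their SDs. Those SDs include the high values that the genes shared in rat 35, so the order is better read within rats. Bgn was above Lum and Fstl1 above Fbln2 in every rat. Fbln2 was above Lox in every rat, though with overlapping intervals in rat 35. For the other neighbours from Lum to Postn, the order was not the same in every rat. Sparc made up 73.0%, 43.1% and 74.9% of the summed FPKM of the 9 genes. That sum was 1016, 3630 and 1105 FPKM, and without Sparc it was 274, 2065 and 278.

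Counting error was small beside these differences. The low values of the tables allowed whole fragments to be recovered for each of the 9 genes, and they numbered from 175 (Postn in rat 70) to 53157 (Sparc in rat 35). The exact 95% Poisson interval of Postn in rat 70, which covers counting error only, was 2.26 to 3.06 FPKM. That of Lox in rat 19 (241 fragments) was 2.16 to 2.79 FPKM. For Lum the intervals of rats 19 (34.3 to 38.5) and 70 (36.1 to 40.4) overlapped, and a difference between these rats beyond counting error was not tested. With 1 library for each rat, variation between animals and between preparations of RNA cannot be told apart.

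On the log2(FPKM + 1) scale, the median deviation of the 9 genes from their own 3-rat means was -0.88, 1.58 and -0.70, beside 0.02, 0.06 and -0.09 for all genes tested. In rat 35, 6 of the 9 genes lay above the central 95% of all genes (-1.99 to 1.40). These were Lum (2.46), Dcn (2.08), Bgn (1.92), Fn1 (1.62), Fstl1 (1.58) and Postn (1.46). Lox (1.23), Sparc (0.67) and Fbln2 (0.36) were inside it. The pattern rests on rat 35: without it, 2 of the 9 genes were over 2-fold apart (17.1% of all genes), the median deviations were -0.03 in rat 19 and 0.03 in rat 70, and the highest value was in rat 19 for 4 genes (57.8% of all genes) and in rat 70 for 5 (42.2%).

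**Figure D2:**
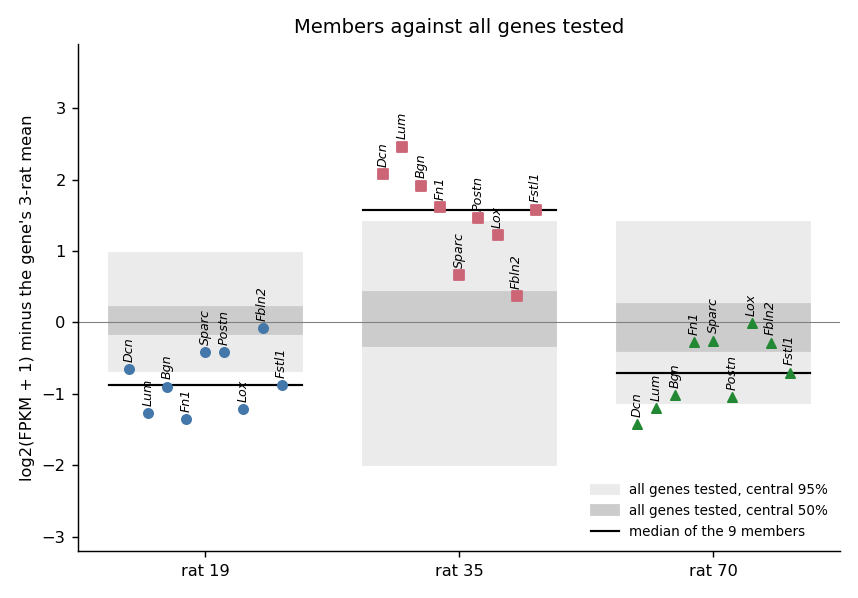
Deviation of each of the 9 genes from its 3-rat mean of log2(FPKM + 1) in each rat, over grey bands with the central 95% and 50% of the 14134 genes tested; the black line is the median of the 9. In rat 35, 6 genes lie above the pale band, and the medians are -0.88, 1.58 and -0.70 in rats 19, 35 and 70.

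Relatives of these genes did not all share their order of rats. Among other small leucine-rich proteoglycans, 2 of the 10 found in the tables reached a mean of 1 FPKM: Fmod (fibromodulin) at 12.7, 13.5 and 8.33 FPKM, and Prelp, which encodes an arginine- and proline-rich member of the family, at 11.5, 13.6 and 7.24. Both were highest in rat 35 (45.4% of all genes), and neither was over 2-fold apart between its highest and lowest rat (49.9% of all genes). Podnl1, which had the largest SD of the 10 on the log2(FPKM + 1) scale, was at 0.19, 1.11 and 0.026 FPKM. Of the other lysyl oxidases, Loxl1, Loxl2 and Loxl3 reached a mean of 1 FPKM. All 3 were over 2-fold higher in rat 35 than in each other rat (12.7% of all genes). Loxl1, which acts on elastin, was at 18.1, 146 and 18.8 FPKM and exceeded Lox in each rat, with a ratio of Lox to Loxl1 of 0.14, 0.12 and 0.37. Loxl2, which acts on basement membrane collagen, was at 5.03, 32.8 and 6.71 FPKM. Lox was lower than Loxl2 in rats 19 and 35 (ratios of 0.49 and 0.54) and close to it in rat 70 (1.04). Loxl3 was at 4.46, 13.8 and 4.66 FPKM, with Lox at 0.55, 1.29 and 1.49 times its level. Loxl4 stayed below 1 FPKM in each rat (0.17, 0.76 and 0.65), with Lox at 14.1, 23.4 and 10.6 times its level.

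The SPARC family was divided between genes highest in rat 35 and genes lowest there. Sparcl1 encodes hevin, an astrocyte-secreted relative of SPARC that promotes synapses, and was at 839.5, 431 and 829 FPKM. The ratio of Sparc to Sparcl1 was 0.88, 3.63 and 0.998. The 2 genes thus had like levels in rats 19 and 70, and Sparc exceeded Sparcl1 in rat 35. Of the 9 tested family members besides Sparc and Fstl1, 6 were lowest in rat 35 and 3 highest there (45.4% of all genes were highest there). The share of all genes lowest in rat 35 was not computed. The lowest ones included the brain proteoglycan genes Spock2 (88.9, 23.5 and 190.1 FPKM), Spock1 (39.55, 23.7 and 119) and Spock3 (13.6, 3.72 and 34.9). Fstl4 (2.70, 0.52 and 7.91) and Fstl5 (3.18, 0.28 and 8.40), which resemble Fstl1 in name and domain, were lowest in rat 35, where Fstl1 was highest, and like it were higher in rat 70 than in rat 19. The genes highest in rat 35 were Fst (0.88, 2.11 and 0.51), Fstl3 (0.58, 2.34 and 0.20) and, by a margin whose counting error was not computed, Smoc1 (6.34, 6.39 and 5.68).

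Fbln2 also differed from other fibulins. Fbln1, a fibulin that binds fibronectin, was at 32.6, 220 and 27.1 FPKM, and Efemp2 (fibulin 4), needed for elastic fibres, at 34.1, 86.1 and 20.2. Fbln5 was at 4.01, 15.0 and 2.95. Efemp1 (fibulin 3) had another order, 20.9, 10.8 and 6.71, and was highest in rat 19. The ratio of Fbln2 to Fbln1 was 0.39, 0.08 and 0.41, and that of Fbln2 to Fbln5 was 3.20, 1.19 and 3.75, so in rat 35 Fbln2 was low relative to both. Of 5 other fibulin genes tested, 4 were over 2-fold higher in rat 35 than in each other rat (12.7% of all genes), and Fbln2 was not. Among fasciclin-domain genes, Tgfbi, whose protein is induced by TGF-beta like periostin, was at 7.92, 60.2 and 5.997 FPKM. The ratio of Postn to Tgfbi was 0.59, 0.33 and 0.44. Stab1, a scavenger receptor gene of macrophages and vessels, was at 4.56, 13.6 and 8.18.

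Partners of these proteins were described by the same counts. Of 19 tested genes of other matrix and matricellular glycoproteins, 17 were highest in rat 35 (45.4% of all genes). Of these, 13 were over 2-fold above each other rat there (12.7% of all genes). Spp1 (osteopontin), which macrophages also secrete, was at 224, 4161 and 126 FPKM, and Nid1, a basement membrane linker, at 41.2, 153 and 19.4. Fbn1 (fibrillin 1, the core of microfibrils) was at 5.61, 49.1 and 10.51 and Eln (elastin) at 17.7, 112 and 16.5. The exceptions were Tnc (tenascin C), highest in rat 19 at 29.0, 18.0 and 2.92, and Tnr (tenascin R, of perineuronal nets), highest in rat 70 at 3.84, 2.65 and 4.87. Ccn2, a matrix-associated growth factor gene known as a TGF-beta target, differed little, at 19.0, 21.0 and 20.1. Mfap4 was listed at 0.

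Among 13 tested receptors that bind these proteins, 10 were highest in rat 35 (45.4% of all genes), 7 of them over 2-fold above each other rat (12.7%). Itgb1, the beta subunit of most matrix-binding integrins, was at 67.2, 170 and 55.6 FPKM, and Itga5, its partner in the classical fibronectin receptor, at 7.46, 32.2 and 5.67. Sdc4, a heparan sulfate proteoglycan that also binds fibronectin, was highest in rat 19 (36.2, 24.7 and 29.4). Of 10 TGF-beta ligand, receptor and Smad genes, 8 were highest in rat 35 (45.4% of all genes). Of these, 4 were over 2-fold above each other rat there (12.7% of all genes). Tgfb1 was at 31.5, 104 and 17.2, Tgfbr1 at 17.8, 85.3 and 13.0 and Tgfbr2 at 18.7, 82.6 and 16.4. Tgfb2 ran the other way and was highest in rat 19 (14.8, 3.66 and 5.84). The enzymes that attach and sulfate the glycosaminoglycan chains of proteoglycans were highest in different rats. Of 13 tested, 6 were highest in rat 35 (45.4% of all genes), 4 in rat 19 (24.8%) and 3 in rat 70 (29.8%). Of the 13, 7 were over 2-fold apart (49.9% of all genes). These counts were near the shares of all genes. Their median log2 range was 0.94, beside 0.86 for all genes. Their summed level was 180, 176 and 166 FPKM, a sum over genes high in different rats. B3gat3, which completes the linker to the core protein, was at 76.4, 41.3 and 76.0, Chpf, a chondroitin polymerizing factor, at 23.8, 14.6 and 29.2, and Chsy1, a chondroitin synthase, at 14.1, 34.3 and 8.05.

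The label of fibroblast genes was set beside marker lists of fibroblasts and of the other cells in a piece of cortex. Of 12 fibroblast markers, 10 reached a mean of 1 FPKM. All 10 were over 2-fold higher in rat 35 than in each other rat (12.7% of all genes). Their summed level was 358, 2838 and 285 FPKM, led by Col3a1 (81.7, 1086 and 68.3), which also had the largest SD on the log2(FPKM + 1) scale, and Col1a1. Pcolce, a procollagen protease enhancer gene, was at 20.1, 178 and 12.5. Col1a2 was at 0, and Dpt, which encodes dermatopontin, was at 0.41, 0.67 and 0.04. Meningeal fibroblast markers summed to 143, 285 and 59.99. Of 11, 10 were highest in rat 35 (45.4% of all genes) and 4 over 2-fold above each other rat (12.7%). Pericyte and smooth muscle markers summed to 209, 393 and 118 (9 of 10 highest in rat 35) and endothelial markers to 215, 349 and 149 (8 of 9). Microglia and macrophage markers summed to 462, 2675 and 436, with 9 of 10 highest in rat 35. The share of 45.4% of all genes stands beside each of these counts of markers highest in rat 35. There, 9 of the 10 microglia and macrophage markers were over 2-fold above each other rat (12.7% of all genes). The same held for 2 of the 10 pericyte and smooth muscle markers and 2 of the 9 endothelial markers. Astrocyte markers (3226, 1043 and 2192), neuron markers (1246, 56.4 and 1813) and oligodendrocyte markers (4066, 3350 and 5508) had their lowest sums in rat 35. The part of each of these cell types in the levels of the matrix genes was not tested.

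**Figure D3:**
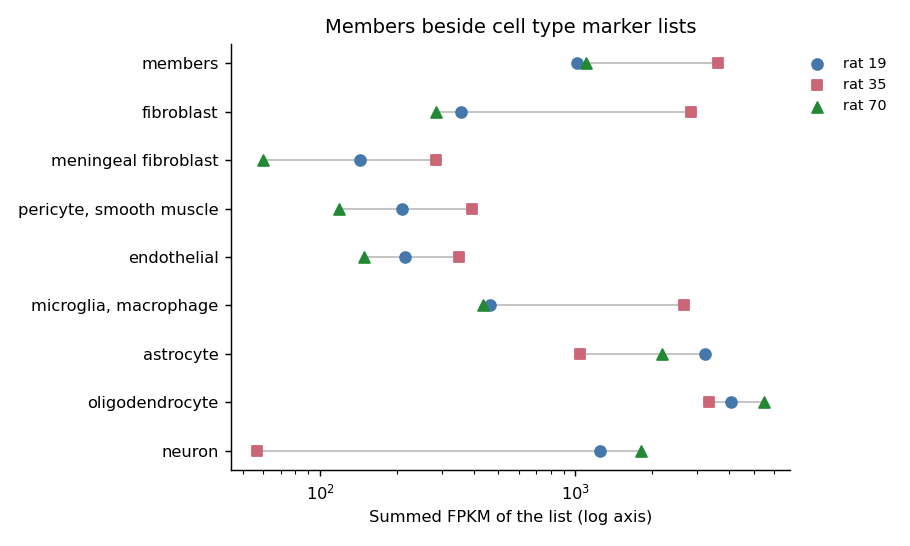
Summed FPKM (log axis) of the matrix genes described here (members) and of 8 lists of cell type markers, 1 symbol for each rat. The fibroblast sum is 358, 2838 and 285 and the microglia and macrophage sum 462, 2675 and 436 in rats 19, 35 and 70, while the neuron sum is lowest in rat 35, at 56.4.

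Relative to the summed fibroblast markers of the same rat, the matrix genes had unequal patterns. That sum is led by the collagen genes Col3a1 and Col1a1, so the percentages depend on the markers chosen. Of the 10 tested markers, 8 were lowest in rat 70 and 2 in rat 19, among them Pdgfra (22.9, 152 and 39.1 FPKM). The shares of all genes lowest in rats 70 and 19 were not computed. Bgn was at 35.8%, 31.9% and 41.3% of the sum and Dcn at 11.4%, 9.78% and 8.23%. Their ranges were 1.29-fold and 1.39-fold on this scale and 7.70-fold and 11.8-fold in FPKM. Whether the number of fibroblasts accounts for the ranges in FPKM was not tested. Lum was at 10.2%, 17.4% and 13.4%. Sparc was at 207%, 55.1% and 290% and Fbln2 at 3.59%, 0.63% and 3.88%, so both were lowest in rat 35 on this scale, with ranges of 5.26-fold and 6.16-fold. Fn1 (6.03%, 6.20% and 16.4%) and Lox (0.69%, 0.63% and 2.44%) were alike in rats 19 and 35 and highest in rat 70. Fstl1 was at 7.68%, 5.48% and 10.9%, and Postn at 1.304%, 0.70% and 0.93%. Besides Fn1 and Lox, Bgn, Sparc, Fbln2 and Fstl1 were highest in rat 70, where the marker sum is lowest. Besides Sparc and Fbln2, Bgn, Postn, Lox and Fstl1 were lowest in rat 35, where the marker sum is highest.

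**Figure D4:**
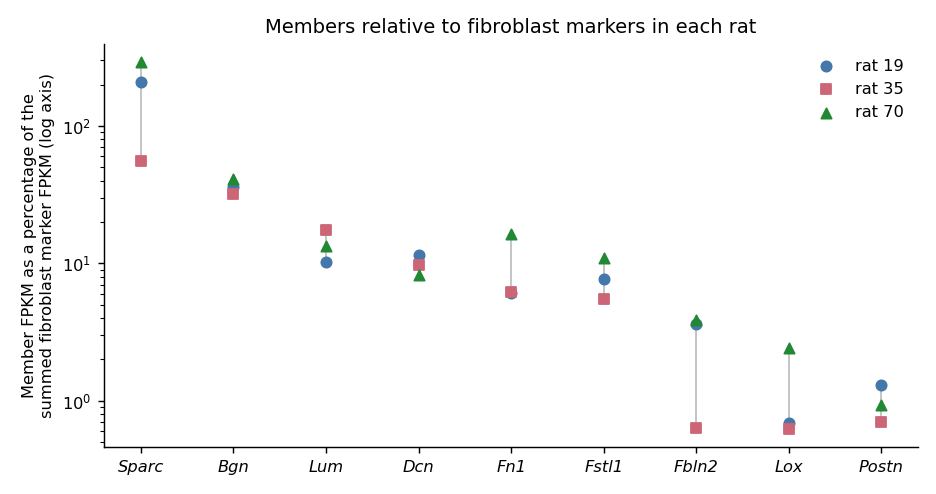
FPKM of each of the 9 genes as a percentage (log axis) of the summed FPKM of 12 fibroblast markers in the same rat, 1 symbol for each rat. Bgn and Dcn lie within 1.29-fold and 1.39-fold. Bgn, Sparc, Postn, Lox, Fbln2 and Fstl1 are lowest in rat 35. Bgn, Fn1, Sparc, Lox, Fbln2 and Fstl1 are highest in rat 70. The sum is led by Col3a1 and Col1a1, and no other denominator was used.

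Across the 9604 named genes with a mean of 5 FPKM or more, the 5 whose deviations over the 3 rats lay closest to the median deviation of the matrix genes were Col12a1, Cped1, Folr2, Lama2 and Gpx3. Their Euclidean distances on the log2(FPKM + 1) scale were 0.04, 0.09, 0.10, 0.10 and 0.10. Col12a1, a chain of a fibril-associated collagen, was at 3.49, 22.8 and 3.96 FPKM. Cped1 was at 2.48, 16.7 and 2.73. Folr2, a folate receptor gene of macrophages, was at 13.4, 83.4 and 16.9. Lama2, a laminin chain gene, was at 3.71, 25.0 and 4.83, and Gpx3, a secreted glutathione peroxidase gene, at 15.3, 90.8 and 19.3. With 3 rats, many genes that are highest in 1 of them come close by this measure.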

How the data were processed

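The mRNA of 3 rats was analysed from 1 table for each. FPKM values were used as deposited; per the labels' design text, the authors obtained them with a Perl script from normalized fragment counts. The submitters' processing notes name HISAT2 2.0.4, StringTie 1.3.0 and the build Rnor 6.0 but give no role for them. The kind of normalization and any use of strand are not given in the sources used here, nor is how fragments shared by near-identical genes were counted.

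With Python 3.11.15, log2(FPKM + 1) was computed, a scale that understates differences of low genes. Genes tested are rows with a mean of 1 FPKM or more. A single group allows no test and no p-value. Of a symbol on several rows, the row with the highest mean was used. Of 180 listed genes, 4 were found by an older symbol and 4 (Ecm2, Podn, Hmcn2 and Pecam1) were not analysed here. Fragments were recovered from the shortest length up to 12000 bp that gave whole numbers in all rats within 0.01, a procedure tested on simulated data. Genes overlapping Fn1 or Lox on the opposite strand were at or below 0.30 FPKM. Alternatives were other pseudocounts, filters and scalings, and leaving out each rat.

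The genes, the 17 other lists and the rule for named genes were chosen with earlier results of these data known. The rule took all 10 genes and, in each list, the 2 with the highest mean and the 1 with the largest SD of log2(FPKM + 1). Cell type lists other than fibroblasts are given by their sums and counts. Further list genes and the percentages of the fibroblast marker sum were chosen after values were seen. Promoters are from RefSeq, build GRCr8. Protein sequences were not used here.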

Additional observations from a re-analysis of the deposited data

How the results depend on the processing

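The counts and medians of the 9 genes above 0 were recomputed with a pseudocount of 0.1, a minimum mean of 5 FPKM, no filter, scaling by the median of ratios, each library rescaled to a sum of 1000000, and mitochondrial genes left out before rescaling. Under each of these, 9 of 9 genes stayed highest in rat 35. With mitochondrial genes left out, 7 genes in place of 8 were over 2-fold apart (51.5% of all genes), since the log2 range of Sparc was 0.88. Rescaling without mitochondrial genes brought the share of all genes highest in rat 35 from 45.4% to 35.1% and the median deviation of all genes there from 0.06 to -0.08. In that setting 35.8% of all genes were highest in rat 70. The share highest in rat 35 was between 41.3% and 45.4% in the other settings. Leaving out rats decided more. Over the fits without 1 rat, the number of genes over 2-fold apart ranged from 2 to 8, the number highest in rat 19 from 0 to 4 and in rat 70 from 0 to 5, and the number over 2-fold above the other rats in rat 70 from 0 to 2. The median deviation of rat 70 ranged from -1.14 to 0.0345 and changed sign without rat 35. With only rats 19 and 70 left, their deviations are equal and opposite by construction. The mean log2 ratio of Sparc to Sparcl1, 0.56 over all rats, ranged from -0.091 without rat 35 to 0.93 without rat 19. The log2 range of each of the 9 genes was between 0.07 (Lum) and 1.201 (Lox) without rat 35. It had to shrink there, since each gene was highest in that rat. No paired analysis was possible because the samples form 1 group. Counting intervals were computed for the 9 genes alone. Between rats, only those of Lum in rats 19 and 70 overlapped.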
